A study of Rattus norvegicus with 12 samples.

Results

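The genes described here are 39 components of the machinery that divides a cell. They were chosen by name, with earlier results of these data known, and are grouped here by role. The other gene lists and the promoter motifs were chosen in the same knowledge, so counts set beside background shares are a description. 36 of the 39 had an array probe set of their own, out of 18166 genes with one. Cenpe, Birc5 and Anln had none and enter below only in the promoter counts. RNA of the 36 genes was measured in the urinary bladder of female Sprague Dawley rats of about 3 months. The sham group was 6 arrays from rats that had surgery alone. The denervated group was 6 arrays from rats whose ganglia were also frozen on both sides, and its bladders were taken 10 days after denervation. The interval between sham surgery and harvest is not given in the labels. Whether the arrays of a group came from different rats is not stated in the labels, so the p-values describe how these samples vary, which may be technical.

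Mitosis begins when cyclin-bound CDK1 becomes active, after which chromosomes condense, a bipolar spindle forms and kinetochores attach each chromosome to microtubules. The spindle checkpoint holds the anaphase-promoting complex in check until attachment is complete, and the chromosomes are then separated and the cell is pinched apart. Most of these genes are silent in resting cells and are transcribed late in the cycle, largely through promoters with a cell cycle homology region (CHR) and CCAAT boxes, which are bound by the MuvB-containing complexes and by NF-Y. The adult bladder wall is known for slow turnover of its smooth muscle and urothelium.

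Promoter stretches of 8 of the genes are shown because they carry these elements close to the transcription start. They come from RefSeq on GRCr8, read in the direction of transcription, and end at the base before the annotated start. Capitals mark a CHR, searched as TTTGAA or TTTAAA, and a CCAAT box, searched as CCAAT, each on both strands (so TTCAAA and ATTGG are the same elements reversed). Cyclin B1 lies at chr2:33655226-33655385 (minus strand), cyclin B2 at chr8:79981659-79981818 (minus strand), Cdk1 at chr20:19265133-19265292 (plus strand) and Plk1 at chr1:186147498-186147657 (plus strand). Cdc20 lies at chr5:137255800-137255959 (minus strand), Mki67 at chr1:199952594-199952753 (minus strand), Top2a at chr10:84473094-84473253 (minus strand) and Kif23 at chr8:71320585-71320744 (minus strand).
Ccnb1: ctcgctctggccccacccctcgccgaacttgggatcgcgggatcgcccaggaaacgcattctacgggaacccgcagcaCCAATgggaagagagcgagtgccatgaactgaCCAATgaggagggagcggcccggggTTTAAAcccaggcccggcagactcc
Ccnb2: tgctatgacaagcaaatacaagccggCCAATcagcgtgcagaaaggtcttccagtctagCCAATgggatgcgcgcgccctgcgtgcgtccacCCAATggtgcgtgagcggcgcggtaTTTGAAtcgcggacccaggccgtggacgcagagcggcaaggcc
Cdk1: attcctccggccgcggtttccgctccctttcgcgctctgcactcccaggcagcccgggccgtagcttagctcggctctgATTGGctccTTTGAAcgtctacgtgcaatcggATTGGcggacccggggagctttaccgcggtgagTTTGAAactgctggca
Plk1: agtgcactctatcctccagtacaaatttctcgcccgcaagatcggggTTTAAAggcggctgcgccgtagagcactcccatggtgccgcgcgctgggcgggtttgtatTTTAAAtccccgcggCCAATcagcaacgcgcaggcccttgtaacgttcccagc
Cdc20: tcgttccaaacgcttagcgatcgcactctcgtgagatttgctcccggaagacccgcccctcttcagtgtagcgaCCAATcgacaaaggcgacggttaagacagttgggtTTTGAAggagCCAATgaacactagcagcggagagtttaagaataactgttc
Mki67: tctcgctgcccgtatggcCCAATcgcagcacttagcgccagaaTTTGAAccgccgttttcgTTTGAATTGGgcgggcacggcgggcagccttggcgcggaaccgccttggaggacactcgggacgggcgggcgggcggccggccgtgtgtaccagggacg
Top2a: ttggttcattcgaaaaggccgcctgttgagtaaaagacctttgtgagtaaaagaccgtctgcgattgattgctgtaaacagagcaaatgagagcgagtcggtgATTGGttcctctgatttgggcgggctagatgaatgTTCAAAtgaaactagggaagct
Kif23: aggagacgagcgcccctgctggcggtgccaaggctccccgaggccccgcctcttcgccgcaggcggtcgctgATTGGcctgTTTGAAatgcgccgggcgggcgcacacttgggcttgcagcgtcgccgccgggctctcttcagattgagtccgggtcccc

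In Ccnb1, Ccnb2 and Cdk1 more than 1 CCAAT box stands upstream of a CHR. In Mki67 a CHR and a reversed CCAAT box overlap, in the run TTTGAATTGG. Of the 39 genes, 32 matched an entry of the RefSeq promoter table, whose windows run from 250 bases before to 50 after the start. A CHR was present in 31 of the 32 windows (96.9%), against 27.9% of all 27457 promoters, and Melk was the 1 without. From 100 bases before to 50 after the start it was present in 29 (90.6%), against 13.1% of all promoters. The nearest CHR lay at a median of -22 bases from the start, with a range of -159 to 29. At least 1 CCAAT box was present in 23 (71.9%, against 37.7%), and a CHR near the start together with a CCAAT box in 21 (65.6%, against 5.33%). The CCAAT box alone was also common in DNA replication genes (66.7%) and in the other mitotic genes (54.9%). Consecutive CCAAT boxes 30 to 35 bases apart occurred in 4 genes, Ccnb1, Ccnb2, Cdk1 and Hmmr (12.5% of 32, against 1.49% of all promoters). The share was similar, 16 of 142 (11.3%), in the other mitotic genes described below, so this spacing was not particular to the 39 genes.

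An E2F-type site, the element typical of DNA replication genes, was searched as TTTCGCGC, TTTGGCGC or TTTCCCGC on both strands. It was present in 1 of the 32 windows (3.12%, Cdk1), in 14 of 27 DNA replication genes (51.9%) and in 1.82% of all promoters. Dropping the leading T, a looser search chosen after those counts were seen, gave 5 of 32 (15.6%), 21 of 27 (77.8%) and 7.97%. These matches describe letters in a window and do not show binding.

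**Figure D1:**
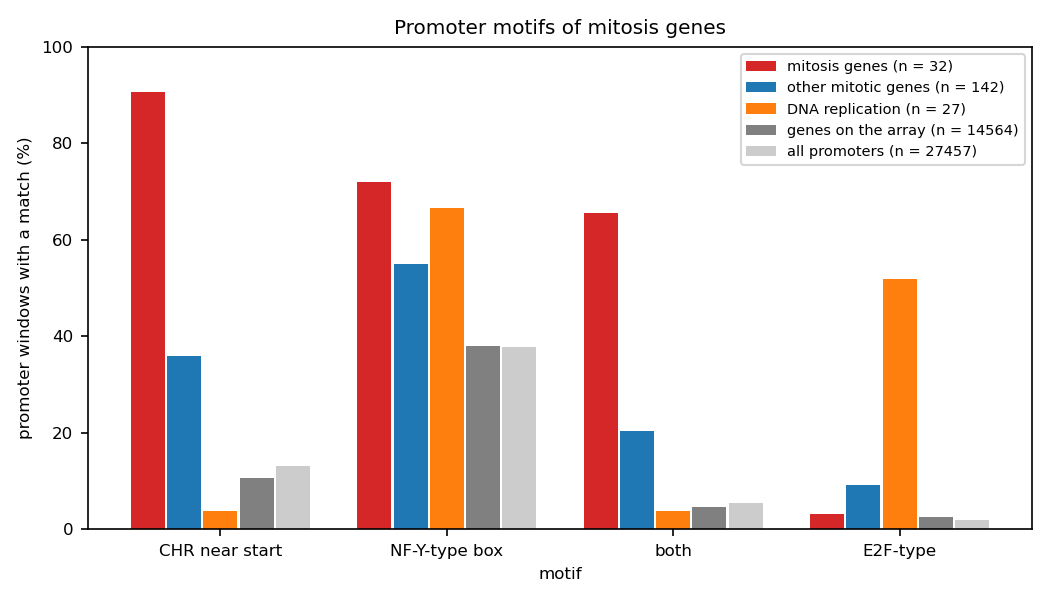
Share of RefSeq promoter windows (%) with each motif, for the mitosis genes, the other mitotic genes, DNA replication genes, genes on the array and all promoters; the NF-Y-type box is the CCAAT box. A CHR near the start is found in 90.6% of mitosis genes and 13.1% of all promoters, while the 8-letter E2F-type site is found in 3.12% and, for DNA replication genes, 51.9%.

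Depth is not defined for arrays, and their number limits the precision. The array medians lay between 5.82 and 5.90 on the log2 scale, and the median gene changed by -0.037. The labels describe the tissue as over 95 percent smooth muscle. Smooth muscle markers were bright (sham means of 13.14 for Myh11 and 13.08 for Des), and so were the urothelial uroplakins (12.72 for Upk1a and 12.63 for Upk2). In bulk tissue, more dividing cells and more RNA per dividing cell cannot be told apart.

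All 36 measured mitosis genes rose after denervation, and none fell. The background share of genes called higher at an adjusted p under 0.05 (limma, Benjamini-Hochberg over 18166 genes) was 11.9%, and of genes called lower 16.9%. Every fitted change was positive, and the rank-sum calls took their direction from the same fit. So no member could be lower at an unadjusted p under 0.05 or by the rank-sum test. The median change was 1.48 on the log2 scale (2.79-fold), and changes ran from 0.43 for Aurka to 2.59 for Mki67. At least a 2-fold rise was fitted in 29 of 36 (background 2.95%), and at least a 4-fold rise in 4, Mki67, Ckap2, Top2a and Ccna2 (background 0.506%).

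Denervated 1, 3, 4 and 5 lay above every sham array in all 36 genes, and denervated 6 in 35. The share of all genes in which a single denervated array did so was not counted, so these counts have no background. Denervated 2 was the lowest of its group in all 36 genes (background 23.1%) and lay within or below the sham range in 35, though above the other 5 sham arrays in 16. Sham 3 was the highest of its group in 35 (background 16.9%), the exception being Aurka, where sham 6 was highest. As a result the groups overlapped in 35 of 36 genes, and Melk was the 1 with every denervated array above every sham array (background 5.76%). Averaged over the 36 genes and set against the sham mean, sham 3 stood at 0.91 and the other sham arrays between -0.28 and 0.07. Denervated 2 stood at 0.13 and the other denervated arrays between 1.36 and 1.88.

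**Figure D2:**
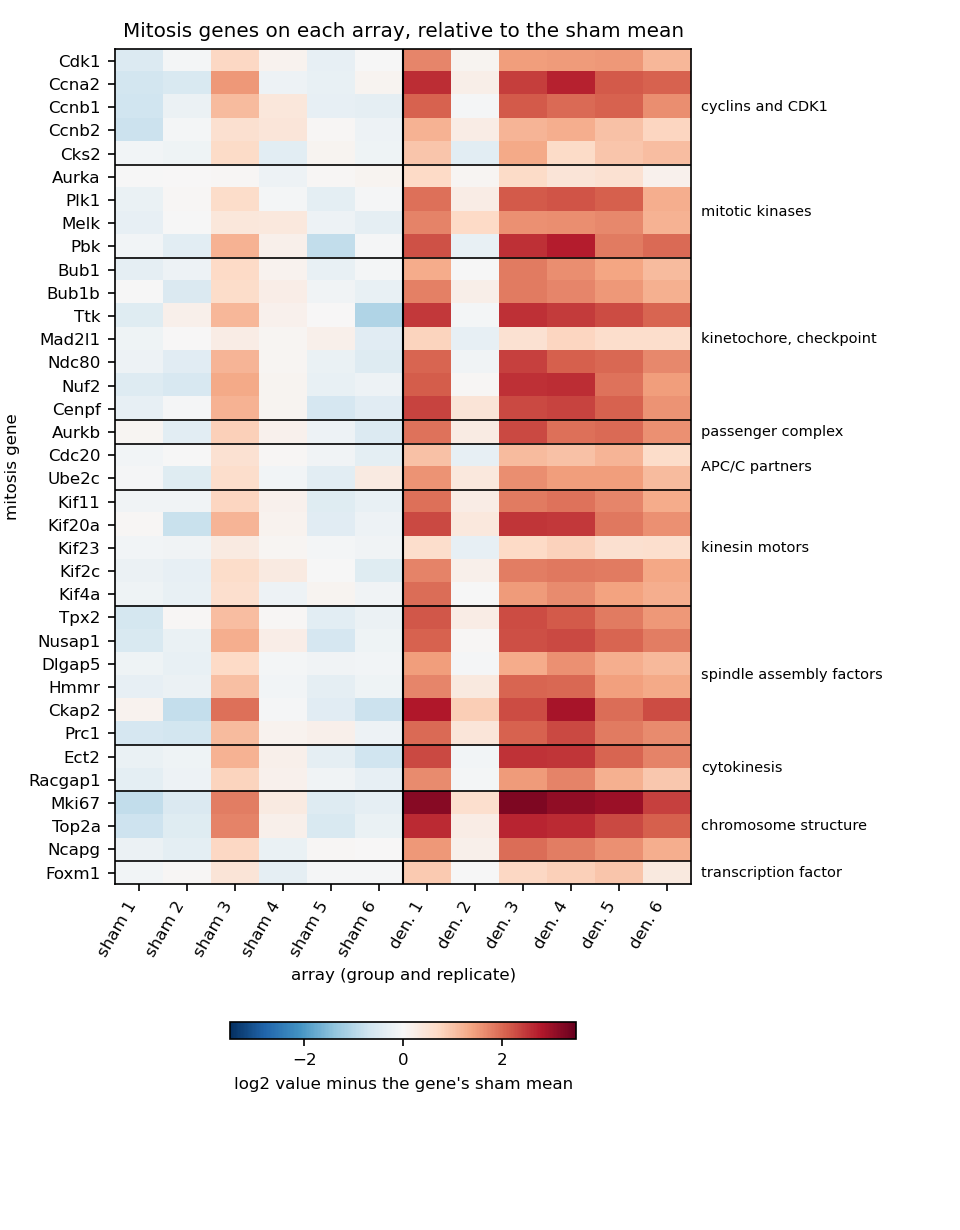
Each of the 36 mitosis genes (rows, grouped by role) on each of the 12 arrays (columns), as the log2 value minus the gene's sham mean (colour). Denervated 2 is the lowest denervated array in every row, and sham 3 the highest sham array in 35 of 36. The smallest departures on the other 5 denervated arrays are 0.15 for Aurka and 0.34 for Foxm1, both on denervated 6.

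Without sham 3 and denervated 2, all 36 were called higher (background 13.7%), none of the 36 overlapped between groups (background 10.9%), and the median change was 1.90. These 2 arrays are the extremes in the members' own values, so leaving them out widens the difference and removes overlap by construction. The background leaves out the same arrays, which were not chosen for those genes, so these values are a description only. The same limit holds for each change and fold of a single gene given below without these 2 arrays. In 10 genes the fold was more than 1.5 times larger without both arrays. The spread within groups followed the same arrays: the median SD of the members was 0.44 over the sham arrays and 0.67 over the denervated ones, against 0.12 and 0.18 for all genes. It was 0.27 without sham 3 and 0.25 without denervated 2.

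**Figure D3:**
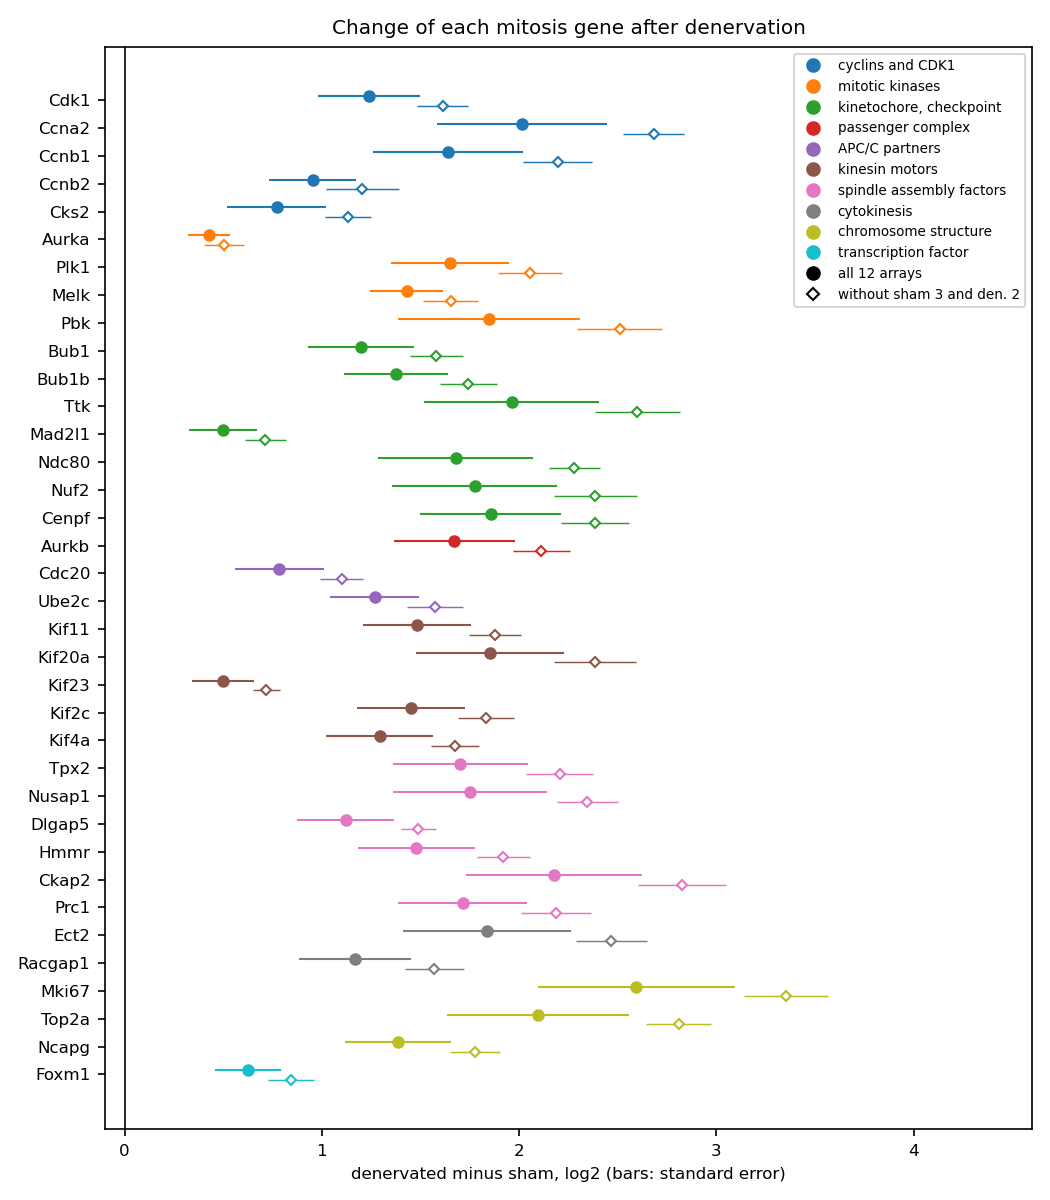
Change of each mitosis gene, denervated minus sham on the log2 scale, with its standard error; filled circles use all 12 arrays and open diamonds leave out sham 3 and denervated 2. Every gene lies above 0, and the median moves from 1.48 to 1.90 without the pair of arrays.

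Among the cyclins, CDK1 and its adaptor, all 5 rose. For cyclin A2, which serves S phase and the approach to mitosis, sham arrays lay at 5.13 to 7.29 (median 5.54) and denervated arrays at 5.96 to 8.45 (median 8.05). It rose by 2.01 ± 0.43 (SE), or 4.04-fold (limma, adjusted p = 0.00382), and by 2.68 (6.42-fold) without sham 3 and denervated 2. The other 5 denervated arrays lay above every sham array. Cdk1, the kinase that drives mitotic entry, showed the same separation: it ranged from 5.11 to 6.32 over the sham arrays (median 5.56) and from 5.69 to 7.32 over the denervated arrays (median 7.07). Its rise was 1.24 ± 0.26 (SE), or 2.36-fold (limma, adjusted p = 0.00336). Of its mitotic partner cyclin B1, sham arrays lay at 4.64 to 6.44 (median 5.11) and denervated arrays at 5.30 to 7.50 (median 7.37). The change was 1.64 ± 0.38 (SE), or 3.11-fold (limma, adjusted p = 0.00597), with denervated 2 inside the sham range. Cyclin B2 rose by 0.95 ± 0.22 on its brighter probe set, while its dimmer one gave 1.63. Cks2, a small CDK-binding adaptor, had the smallest rise of the group: it ranged from 5.18 to 6.21 over the sham arrays (median 5.44) and from 5.17 to 6.87 over the denervated arrays (median 6.52). That change, 0.77 ± 0.25 (SE), or 1.71-fold (limma, adjusted p = 0.0344), lost its call without any 1 of 10 arrays, all but sham 3 and denervated 2 (adjusted p up to 0.0756).

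All 4 other mitotic kinases rose. Pbk, a kinase active in mitotic cells, changed most: it ranged from 3.77 to 5.85 over the sham arrays (median 4.57) and from 4.38 to 7.40 over the denervated arrays (median 6.74). Its rise was 1.85 ± 0.46 (SE), or 3.6-fold (limma, adjusted p = 0.00894), and 2.51 (5.69-fold) without sham 3 and denervated 2. The exact rank-sum test did not call it (adjusted p = 0.0850). In Melk, a kinase of proliferating cells, sham arrays lay at 3.78 to 4.48 (median 4.00) and denervated arrays at 4.79 to 5.83 (median 5.71). This was the 1 gene without overlap, and it had the lowest adjusted p of the 36, with a rise of 1.43 ± 0.19 (SE), or 2.69-fold (limma, adjusted p = 0.000224). Plk1, which acts at centrosomes, kinetochores and the midbody, rose by 1.65 ± 0.30 (SE), or 3.14-fold (limma, adjusted p = 0.00144). Aurka, the Aurora kinase of spindle poles, changed least of all 36: it ranged from 5.87 to 6.15 over the sham arrays (median 6.07) and from 6.11 to 6.73 over the denervated arrays (median 6.53). Its groups overlapped through denervated 2 alone, and it rose by 0.43 ± 0.11 (SE), or 1.34-fold (limma, adjusted p = 0.00936).

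The 7 measured genes of the kinetochore and spindle checkpoint rose, with a median change of 1.68. For Ttk, the kinase that starts checkpoint signalling, sham arrays lay at 3.48 to 5.70 (median 4.62) and denervated arrays at 4.47 to 7.10 (median 6.91). Its rise was 1.96 ± 0.45 (SE), or 3.89-fold (limma, adjusted p = 0.00535), or 2.60 (6.06-fold) without the 2 outlying arrays, and the rank-sum test did not call it (adjusted p = 0.0850). The checkpoint kinases Bub1 (1.20 ± 0.27) and Bub1b (1.38 ± 0.26) rose. So did Ndc80 (1.68 ± 0.39) and Nuf2 (1.77 ± 0.42), which together grip microtubules, and Cenpf (1.86 ± 0.36), a protein of the outer kinetochore. Mad2l1, the checkpoint protein that restrains Cdc20, changed least: it ranged from 5.70 to 6.37 over the sham arrays (median 6.14) and from 5.80 to 6.87 over the denervated arrays (median 6.72). Its rise of 0.50 ± 0.17 (SE), or 1.41-fold (limma, adjusted p = 0.0432) lost its call without any 1 of 10 arrays, all but sham 3 and denervated 2 (adjusted p up to 0.0945).

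Aurkb, the kinase of the chromosomal passenger complex that corrects faulty attachments, was higher on 5 denervated arrays than on any sham array: it ranged from 5.08 to 6.39 over the sham arrays (median 5.51) and from 5.86 to 7.87 over the denervated arrays (median 7.48). It rose by 1.67 ± 0.31 (SE), or 3.19-fold (limma, adjusted p = 0.0015). Both partners of the anaphase-promoting complex rose as well. For Ube2c, its ubiquitin-conjugating enzyme, sham arrays lay at 5.25 to 6.30 (median 5.61) and denervated arrays at 6.03 to 7.31 (median 7.14), a rise of 1.27 ± 0.23 (SE), or 2.41-fold (limma, adjusted p = 0.0013). Cdc20, its activator, was less changed: it ranged from 5.85 to 6.72 over the sham arrays (median 6.16) and from 5.93 to 7.40 over the denervated arrays (median 7.23). That rise was 0.78 ± 0.23 (SE), or 1.72-fold (limma, adjusted p = 0.0191), which the rank-sum test did not call (adjusted p = 0.116).

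All 5 kinesin motors rose. In Kif20a, a motor of the central spindle and cytokinesis, sham arrays lay at 4.85 to 6.82 (median 5.56) and denervated arrays at 5.99 to 8.12 (median 7.70). It rose by 1.85 ± 0.38 (SE), or 3.61-fold (limma, adjusted p = 0.00274). Kif11, which pushes spindle poles apart, rose by 1.48 ± 0.27, the microtubule depolymerase Kif2c by 1.45 ± 0.27 and the chromosome-bound Kif4a by 1.29 ± 0.27. Kif23, the motor of centralspindlin, changed least: it ranged from 7.31 to 7.76 over the sham arrays (median 7.37) and from 7.16 to 8.24 over the denervated arrays (median 8.05). Here denervated 2 was below every sham array. The rise of 0.50 ± 0.16 (SE), or 1.41-fold (limma, adjusted p = 0.0298) lost its call without any 1 of 9 arrays, all but sham 3, sham 4 and denervated 2 (adjusted p up to 0.0682).

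The 6 spindle assembly factors rose with a median change of 1.71. Ckap2, a microtubule-stabilizing protein, had the largest change of the group: it ranged from 4.19 to 6.94 over the sham arrays (median 4.79) and from 5.89 to 7.91 over the denervated arrays (median 7.29). It rose by 2.18 ± 0.45 (SE), or 4.53-fold (limma, adjusted p = 0.00289), and by 2.82 (7.08-fold) without sham 3 and denervated 2. The groups overlapped through sham 3 and denervated 2. Tpx2, which activates Aurora A on the spindle, rose by 1.70 ± 0.34, and Prc1, which crosslinks antiparallel microtubules, by 1.71 ± 0.33. Nusap1 (1.75 ± 0.39), a microtubule bundler, and Hmmr (1.48 ± 0.29), a spindle-associated protein, rose too. For Dlgap5, which stabilizes kinetochore fibres, sham arrays lay at 5.84 to 6.78 (median 5.98) and denervated arrays at 6.06 to 7.69 (median 7.38), the smallest rise of the group at 1.12 ± 0.25 (SE), or 2.17-fold (limma, adjusted p = 0.00433).

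Both measured cytokinesis genes rose. Ect2, an exchange factor that acts at the cleavage plane, gave 4.17 to 6.09 on sham arrays (median 4.68) and 4.77 to 7.40 on denervated ones (median 7.04). Its rise was 1.84 ± 0.43 (SE), or 3.57-fold (limma, adjusted p = 0.00602). Racgap1, the partner of Kif23 in centralspindlin, rose from a sham median of 5.12 (4.93 to 6.05) to 6.64 (5.20 to 7.01), a change of 1.17 ± 0.28 (SE), or 2.24-fold (limma, adjusted p = 0.00777). In both genes denervated 2 lay within the sham range.

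The 3 genes of chromosome structure included the largest rise. Mki67, which coats mitotic chromosomes and is the usual marker of cycling cells, behaved as follows: sham arrays lay at 5.95 to 8.60 (median 6.43) and denervated arrays at 7.40 to 10.07 (median 9.86). Sham 3 was the 1 sham array above denervated 2. The rise was 2.59 ± 0.50 (SE), or 6.04-fold (limma, adjusted p = 0.00202), and 3.35 (10.2-fold) without those 2 arrays. Top2a, which untangles sister DNA, followed the same arrays: it ranged from 5.51 to 7.96 over the sham arrays (median 5.90) and from 6.49 to 8.90 over the denervated arrays (median 8.69). It rose by 2.10 ± 0.46 (SE), or 4.28-fold (limma, adjusted p = 0.00436), and by 2.81 (7-fold) without them. For the condensin subunit Ncapg, sham arrays lay at 4.70 to 5.77 (median 4.93) and denervated arrays at 5.20 to 6.99 (median 6.60), a rise of 1.39 ± 0.27 (SE), or 2.61-fold (limma, adjusted p = 0.00216).

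Foxm1, the transcription factor of late cell cycle genes, overlapped between groups: it ranged from 6.05 to 6.80 over the sham arrays (median 6.30) and from 6.33 to 7.32 over the denervated arrays (median 7.13). Its rise was 0.62 ± 0.17 (SE), or 1.54-fold (limma, adjusted p = 0.0136), and the rank-sum test did not call it (adjusted p = 0.0576). It was the 1 member in which an array other than denervated 2, denervated 6 at 6.70, lay below sham 3 at 6.80.

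The other lists held 146 measured genes, called other mitotic genes here although they take in whole families, with kinesins that carry cargo and E2F and RB regulators. Of these 67 rose (45.9%, against 11.9% of all genes), 11 fell (7.53%, against 16.9%) and 68 were not called, with a median change of 0.25, beside -0.037 for all genes. The counts of the single lists below are to be read against the same shares of all genes. At least 1 left-out array ended 15 of these 78 calls. Among the genes named here these were Ube2s, Anapc15, Lin37, Rbl1, Smc1a, Pds5b, Kif24 and Kif26b. In the kinetochore list 20 of 36 rose and none fell, led by the cohesin protector Sgo2 (2.09 ± 0.40, adjusted p = 0.00207), the scaffold Knl1 (1.94 ± 0.34, adjusted p = 0.00116) and the microtubule-binding Ska1 (1.59 ± 0.30, adjusted p = 0.00174) and Ska3 (1.47 ± 0.28, adjusted p = 0.00205). In the list of spindle, centrosome and cytokinesis genes 20 of 30 rose, led by Depdc1 (2.13 ± 0.38, adjusted p = 0.00137), Cdca3 (1.75 ± 0.32, adjusted p = 0.00158), the abscission protein Cep55 (1.72 ± 0.37, adjusted p = 0.00377) and Arhgap11a (1.68 ± 0.24, adjusted p = 0.000393). The gamma-tubulin ring subunit Tubgcp2 fell by 0.19. Of 16 further CDK regulators and kinases 6 rose, led by the phosphatase Cdkn3 (1.77 ± 0.40, adjusted p = 0.00537), Mastl (1.36 ± 0.34, adjusted p = 0.00897), a kinase whose pathway restrains the phosphatase PP2A, the centriole kinase Plk4 (1.09 ± 0.27, adjusted p = 0.00795) and Ccnf (1.05 ± 0.18, adjusted p = 0.001). The rank-sum test did not call Mastl or Plk4 (adjusted p = 0.0850 for each). Of the CDC25 phosphatases, which activate CDK1, Cdc25c (0.61 ± 0.14, adjusted p = 0.00652) rose, while Cdc25a (-0.10) and Cdc25b (0.058) were not called. Bora (0.63 ± 0.11, adjusted p = 0.00106), a cofactor of Aurora A, rose, and Wee1 (-0.28), which restrains CDK1, was not called.

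The remaining lists moved in both directions. Of 14 other kinesins 8 rose, led by Kif20b (1.24 ± 0.32, adjusted p = 0.0116), Kif18b (0.85 ± 0.23, adjusted p = 0.0152), Kif22 (0.84 ± 0.14, adjusted p = 0.00106) and Kif18a (0.68 ± 0.18, adjusted p = 0.0144), these 4 being motors of mitosis. The rank-sum test did not call Kif20b (adjusted p = 0.116), Kif18b (0.0850) or Kif18a (0.158). The 8 also included Kif26b (0.57 ± 0.18, limma adjusted p = 0.0295) and Kif24 (0.47 ± 0.16, limma adjusted p = 0.0429). Their calls were lost on leaving out 8 and 11 of the 12 single arrays. The 4 that fell carry cargo or serve cilia: Kif3a (-0.46 ± 0.075, adjusted p = 0.000731), Kif16b (-0.44 ± 0.087, adjusted p = 0.00234), Kif5b (-0.35 ± 0.063, adjusted p = 0.00144) and Kif13b (-0.33 ± 0.089, adjusted p = 0.0132). The 2 not called were Kif3b (-0.065) and Kif13a (-0.13). Whether the list divides by function was not tested.

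Among 15 genes of condensin and cohesin 5 rose and 4 fell. The cohesin acetyltransferase Esco2 (1.27 ± 0.33, adjusted p = 0.0106) and the condensin subunits Ncapd2 (0.77 ± 0.15, adjusted p = 0.00246), Ncapg2 (0.67 ± 0.096, adjusted p = 0.000355), Smc4 (0.45 ± 0.084, adjusted p = 0.00168) and Ncapd3 (0.27 ± 0.064, adjusted p = 0.00688) rose. The cohesin subunits Stag2 (-0.39 ± 0.076, adjusted p = 0.00219), Smc3 (-0.27 ± 0.07, adjusted p = 0.0118) and Smc1a (-0.20 ± 0.072, adjusted p = 0.0498) and the regulator Pds5b (-0.30 ± 0.096, adjusted p = 0.0314) fell. Calls for Smc1a and Pds5b were each lost on leaving out some single arrays, 10 and 9 of 12.

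Of 17 subunits and regulators of the anaphase-promoting complex 3 rose, the inhibitor Fbxo5 (0.62 ± 0.17, adjusted p = 0.0153), the chain-extending enzyme Ube2s (0.31 ± 0.10, adjusted p = 0.0327) and Anapc15 (0.25 ± 0.087, adjusted p = 0.0485). The small subunit Anapc13 fell by 0.21, and 13 were not called, among them Cdc27 (-0.022) and Anapc1 (-0.052). Ube2s and Anapc15 lost their calls on leaving out 8 and 9 of the 12 single arrays. Of 18 E2F, DREAM and MuvB regulators 5 rose, E2f7 (0.85 ± 0.15, adjusted p = 0.00138), Mybl2 (0.82 ± 0.16, adjusted p = 0.00231), E2f8 (0.77 ± 0.13, adjusted p = 0.000865), Rbl1 (0.50 ± 0.15, adjusted p = 0.0229) and Lin37 (0.20 ± 0.066, adjusted p = 0.0394), the last 2 losing their call on leaving out 2 and 9 single arrays. The E2F partner Tfdp2 (-0.86 ± 0.13, adjusted p = 0.000476) fell. Of 29 DNA replication genes 14 rose and 1 fell, with a median change of 0.18, led by the ribonucleotide reductase subunit Rrm2 (2.50 ± 0.47, adjusted p = 0.00182). The 1 that fell was the clamp loader subunit Rfc4 (-0.28 ± 0.097, adjusted p = 0.0473). Its call and those of Cdc6, Cdt1, Mcm4 and Mcm5 were each lost on leaving out 8 to 11 of the 12 single arrays, and no gene of this list was called lower without sham 3 and denervated 2.

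**Figure D4:**
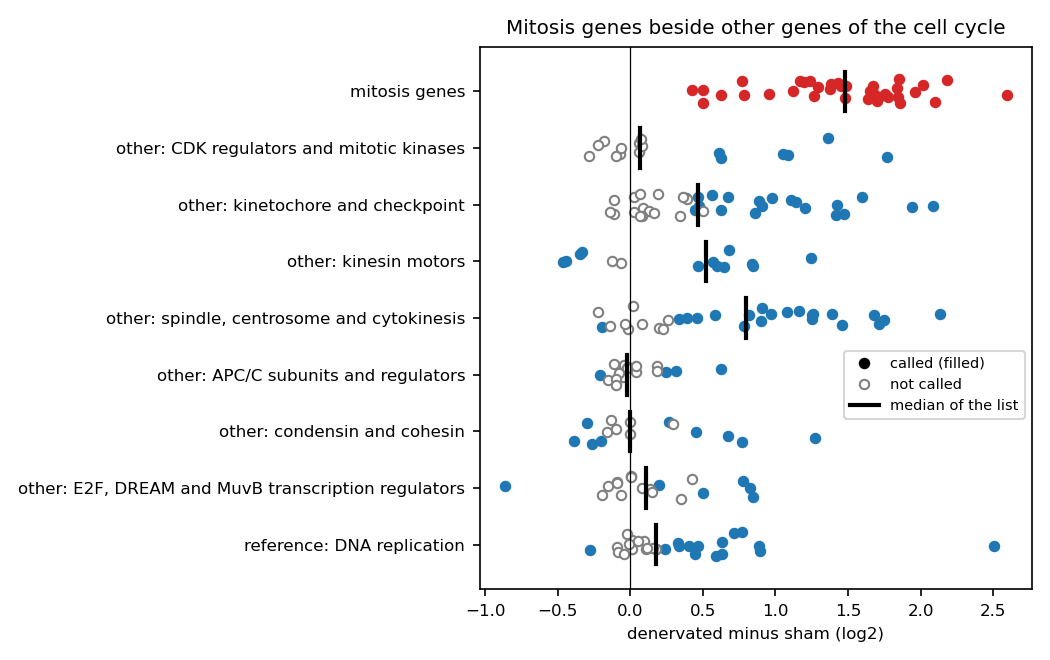
Change of each gene, denervated minus sham on the log2 scale, for the mitosis genes and each other list; filled points were called at an adjusted p under 0.05, open points were not, and the bar is the median of the list. The medians are 1.48 for the mitosis genes, 0.80 for spindle, centrosome and cytokinesis genes, and 0.18 for DNA replication.

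The promoter elements were also set beside the calls of genes outside the members, as a description. Among other mitotic genes with a promoter entry, 32 of 45 with a CHR near the start rose (71.1%), and 29 of 82 without one (35.4%). Of the same 45 and 82 genes, 2 and 8 fell. With a CCAAT box as well, 23 of 28 rose (82.1%). Among DNA replication genes 11 of 24 without a CHR near the start rose (45.8%), and 0 of 1 with one. Over all genes on the array outside the members the shares were close to the background: 191 of 1525 with a CHR near the start (12.5%) and 1503 of 13010 without (11.6%). With a CHR near the start and a CCAAT box, 93 of 654 of these genes rose (14.2%).

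Markers of several cell types moved with the groups, while other marker lists were mixed or largely not called. All 10 macrophage markers rose, with a mean over the list of 0.95 to 2.04 above sham on the denervated arrays and -0.10 to 0.13 on the sham arrays. Of 7 T and NK cell markers 6 rose (0.39 to 1.87 on the denervated arrays). All 7 urothelial markers fell (-0.99 to -0.53), as did all 4 Schwann cell markers (-2.15 to -0.71) and 5 of 8 smooth muscle markers (-0.73 to -0.039), these ranges being list means on the denervated arrays. 1 smooth muscle marker, Smtn (0.51 ± 0.15, adjusted p = 0.0211), rose. Of 5 B and plasma cell markers 1 rose, Jchain (2.92 ± 0.51, limma adjusted p = 0.00114), and 4 were not called (-0.024 to 0.34). Of 4 mesothelial markers 1 rose and 1 fell. Of 6 fibroblast markers 3 rose (0.086 to 0.69), and of 4 endothelial markers 2 rose (0.19 to 0.71). The fibroblast means of denervated 2 and denervated 6 lay inside the sham range (-0.13 to 0.12). The smooth muscle mean of denervated 2 also lay inside its sham range (-0.09 to 0.12). The calls of the Schwann cell marker Sox10 and the fibroblast marker Dpt were lost on leaving out 11 and 8 of the 12 single arrays. None of the 4 red blood cell markers was measured. Denervated 2 had the smallest departure from sham of the denervated arrays for the macrophage (0.95), Schwann cell (-0.71), urothelial (-0.53) and smooth muscle (-0.039) lists. The same held for the fibroblast (0.086, against 0.11 on denervated 6) and endothelial (0.19, against 0.40 on denervated 1) lists. Denervated 2 was not the smallest for T and NK cells (0.66, against 0.39 on denervated 3) or mesothelium (-0.60, against 0.17 on denervated 3). For B and plasma cells it had the largest departure (1.34, against 0.32 to 0.81 on the other denervated arrays). That list mean holds 1 called gene, Jchain, which ranged from 6.09 to 9.88 over the denervated arrays. For DNA replication denervated 2 stood at -0.065. The macrophage mean of sham 3 was 0.13, the highest of the sham arrays (-0.10 to 0.040 on the others), and its mitosis mean was 0.91. Sham 3 was also the highest sham array for the fibroblast list (0.12, against -0.13 to 0.050 on the others). The part of these cell types and of the arrays in the rise of the mitosis genes was not tested.

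**Figure D5:**
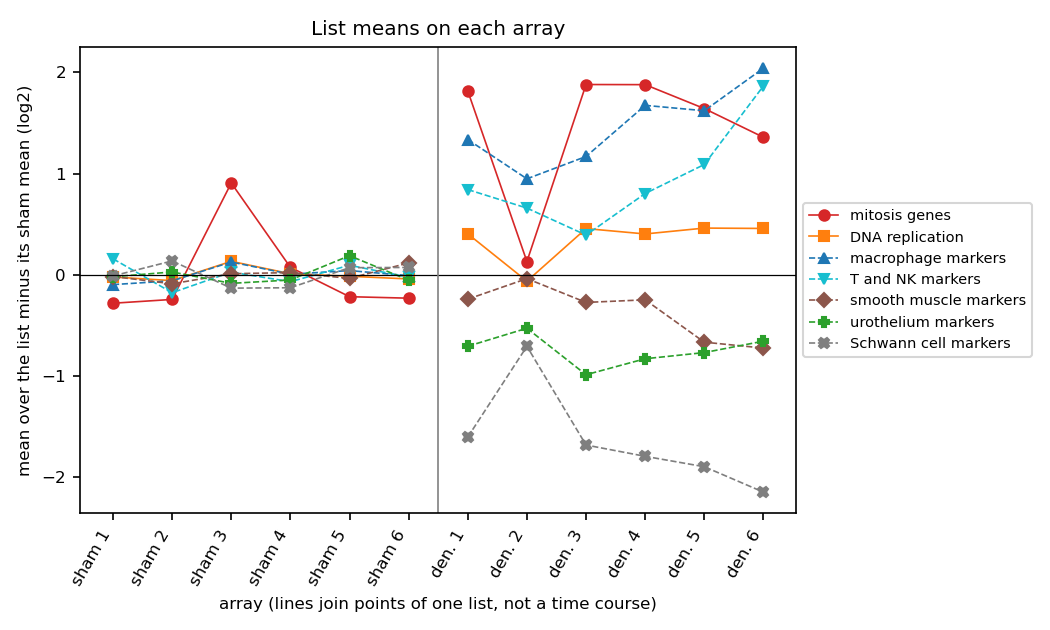
Mean over each list on each array, minus the list's sham mean (log2); lines only join points of 1 list. The mitosis genes stand at 0.91 on sham 3 and 0.13 on denervated 2, where the macrophage markers stand at 0.13 and 0.95. Sham 3 is the highest sham array for both lists, for DNA replication (0.13) and for the fibroblast markers (0.12), which are not drawn.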

How the data were processed

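The authors deposited a table of log2 expression values with 36685 probe sets and 12 arrays. The submitters' processing notes name RMA (background correction, quantile normalization and probe summary) and Affymetrix Expression Console 1.4.1.46. A genome build, scan date or batch is not given in the sources used here. Probe sets were named from GEO's platform annotation: 18511 had 1 gene, 575 several and were left out, and the remaining ones were unnamed. The probe set with the highest mean stood for each of 18166 genes. Groups were taken from the sample titles. The model denervated minus sham was fitted with limma 3.58.1 (R 4.3.3), moderated by eBayes and tested on simulated data. P-values were adjusted by Benjamini-Hochberg across the 18166 genes, and an adjusted p under 0.05 was a call.

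Every member could be named, with ranges for the largest and smallest change of each role and for Mki67, Top2a, Cdk1, Ccnb1 and Foxm1. From each other list up to 4 called genes of largest change and those called against its direction were named, and from the replication and marker lists a few genes. Some uncalled genes and genes named for the loss of a call, or beside another of their kind, were chosen after their values were seen. The members, lists and promoter motifs were chosen with earlier results of these data known. Promoter windows of 300 bases came from RefSeq on GRCr8 by gene symbol. The E2F-type motif was searched with 8 letters. A 7-letter form was added after the 8-letter counts were seen, and both are given. Alternatives were renormalization, centring, a filter on the dimmest 25%, other test settings, probe set means, a replicate block and the omission of arrays.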

Additional observations from a re-analysis of the deposited data

Results flagged for a closer look

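In 27 of 72 tests of the members' groups, 1 array stood so far from the other 5 that its gap to the nearest, divided by the range of the group, passed Dixon's 95% critical value for 6 samples. Chance flags about 1 in 20 such groups, and the members are not independent, since the same 2 arrays recur. Denervated 2, the lowest of its group, gave a ratio of 0.659 for Cdk1, 0.753 for Ccna2, 0.759 for Ccnb1, 0.686 for Pbk, 0.643 for Bub1b, 0.803 for Ttk, 0.7898 for Mad2l1, 0.718 for Ndc80, 0.657 for Aurkb, 0.627 for Kif11, 0.779 for Kif23, 0.701 for Kif2c, 0.648 for Kif4a, 0.771 for Nusap1, 0.715 for Dlgap5, 0.642 for Prc1, 0.7002 for Ect2, 0.678 for Mki67 and 0.757 for Top2a. Sham 3, the highest of its group, gave a ratio of 0.666 for Ccna2, 0.693 for Ndc80, 0.651 for Nuf2, 0.7904 for Dlgap5, 0.842 for Hmmr, 0.655 for Ckap2, 0.64 for Top2a and 0.652 for Ncapg.

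The means over gene lists picked out the same arrays. For denervated 2 the ratio was 0.702 for the 36 mitosis genes, 0.669 for other CDK regulators and kinases, 0.739 for other kinetochore genes, 0.7098 for other kinesins, 0.655 for other spindle and cytokinesis genes, 0.889 for DNA replication genes and 0.6902 for all other mitotic genes. For sham 3 it was 0.702 for the 36 mitosis genes, 0.741 for other CDK regulators and kinases, 0.647 for other kinetochore genes, 0.726 for other kinesins, 0.794 for other spindle and cytokinesis genes, 0.645 for DNA replication genes and 0.773 for all other mitotic genes. What sets these arrays apart was not tested.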

How the results depend on the processing

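Over 20 alternative settings no member changed direction. Between 29 (exact rank-sum test) and 36 of the members were called higher, none was called lower, and leaving out 1 array gave 33 to 36 higher and 0 lower. The mean change over the members was 1.45, with 1.37 to 1.72 on leaving out 1 array and 1.90 without sham 3 and denervated 2. The 67 other mitotic genes called higher became 37 under the rank-sum test and 55 to 77 on leaving out 1 array, and the 5216 genes called became 4374 to 6273. Replicate numbers did not pair the arrays (correlation of same-numbered deviations from -0.11 to 0.10). With the replicate block 35 members were called higher and 0 lower, 65 other mitotic genes were higher, 4460 genes were called and the mean change stayed at 1.45. 29 members kept their call under every alternative that could be run on them. The others were Cks2, Mad2l1, Kif23, Pbk, Ttk, Cdc20 and Foxm1. The number of members with an E2F-type motif moved from 1 to 5 with the 7-letter form, which was added after seeing the data. With 6 arrays a group, their number limits the precision.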
